A study of Homo sapiens with 6 samples.

Results

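The ion channel genes TRPM8, TRPM4, TRPM7, TRPV6, CHRNA2 and KCNJ3 were followed through 6 RNA sequencing libraries of prostate cancer cells. They were chosen by symbol as channels known in the prostate, or selected on strong differences in these same libraries with the androgen dihydrotestosterone (DHT) or between the cell lines. All 6 were found among the 21512 rows of the deposited count table, and all 6 were among the 13885 genes that had a mean of at least 20 counts and were tested; KCNJ3 reached that mean only through BicR. Because DHT and cell line entered the choice, the members' values in those comparisons are given as a description without a test. Their standard errors (SE) were derived from the test statistic of the same fit. An estimate that is large beside its SE is therefore no separate support in those comparisons.

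LNCaP is an established human prostate cancer line that responds to androgen. BicR is another prostate cancer line; the labels do not say how it was derived. After 3 days without phenol red in medium with 2.5% charcoal-stripped serum, which is poor in hormones, each line was given ethanol vehicle, 10 nM DHT or 1 µM of the antiandrogen bicalutamide for 24 h. Each of these 6 groups was 1 library, so neither line nor treatment has a repeated culture, and each line stands for itself alone.

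Transient receptor potential (TRP) channels are cation channels of 4 subunits. TRPM8 opens to cold and menthol and is known from sensory neurons and from prostate epithelium, where its transcript follows androgen signalling. TRPM4 carries sodium and potassium when intracellular calcium rises, TRPM7 joins a magnesium- and calcium-permeable channel to a protein kinase, and TRPV6 is a calcium-selective channel of epithelia. CHRNA2 encodes an alpha subunit of nicotinic acetylcholine receptors, the cation channels opened by acetylcholine. KCNJ3 encodes GIRK1, a subunit of potassium channels opened by G proteins.

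Sequence around the annotated start of a gene was at hand in RefSeq (GRCh38.p14) for 5 of the 6 members, in 10 windows of 300 bases (250 before a start site and 50 after it). Of these, 3 are shown. That of TRPM8 belongs to the TRP gene with the largest DHT difference, and those of KCNJ3 and TRPV6 hold the androgen response hexamer AGAACA (read on either strand, so also as TGTTCT). Capitals mark TATAAA in the TRPM8 window and the hexamer in the others. The windows lie at chr2:233917123-233917422 (plus strand), chr2:154698445-154698744 (plus strand) and chr7:142885696-142885995 (minus strand), each written 5′ to 3′ on the gene's strand.
TRPM8: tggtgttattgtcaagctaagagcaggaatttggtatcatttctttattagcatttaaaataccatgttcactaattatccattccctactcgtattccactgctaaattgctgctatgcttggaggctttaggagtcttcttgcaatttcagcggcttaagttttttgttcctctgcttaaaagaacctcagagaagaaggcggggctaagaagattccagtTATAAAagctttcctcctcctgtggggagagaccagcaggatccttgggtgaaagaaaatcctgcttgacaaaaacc
KCNJ3: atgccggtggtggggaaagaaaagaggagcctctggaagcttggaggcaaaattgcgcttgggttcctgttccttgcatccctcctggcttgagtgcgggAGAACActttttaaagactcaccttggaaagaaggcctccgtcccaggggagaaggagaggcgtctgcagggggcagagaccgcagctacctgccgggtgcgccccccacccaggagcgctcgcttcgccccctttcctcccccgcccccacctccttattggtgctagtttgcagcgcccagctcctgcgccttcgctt
TRPV6: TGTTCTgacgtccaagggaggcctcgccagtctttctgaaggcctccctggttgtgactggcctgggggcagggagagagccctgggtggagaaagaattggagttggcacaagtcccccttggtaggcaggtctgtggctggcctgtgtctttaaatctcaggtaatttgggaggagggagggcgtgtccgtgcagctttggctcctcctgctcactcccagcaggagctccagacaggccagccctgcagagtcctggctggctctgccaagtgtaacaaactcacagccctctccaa

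The full element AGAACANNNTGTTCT, in which the hexamer stands in both directions, occurred in none of the 10 windows and in 1 of all 35116 windows of this length. The hexamer occurred in 3 of the 10 windows and in 14.8% of all windows. In KCNJ3 it began 150 bases before the start site and in TRPV6 250 bases before it, at the edge of the window. The window at the outermost TRPM8 start had no hexamer, while 1 of the 5 windows at inner TRPM8 starts had it, 166 bases before that start. TATAAA on the gene's strand, found in 7.33% of all windows, stood 27 bases before the outermost TRPM8 start. The 5 genes differed in base composition: 41% of the TRPM8 window was G or C with 3 CpG sites, against 71% and 21 in TRPM4, 73.3% and 48 in TRPM7, 61.7% and 15 in KCNJ3, and 59.3% and 4 in TRPV6, where the median of all windows was 58.7% and 14.

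Depth was 42162723 to 55917016 counts per library, so that a floor of 3 counts corresponds to between 0.0552 and 0.0715 CPM (counts scaled to a common library size, with TMM factors). All 8 luminal prostate markers were tested, with a summed level of 3805 to 9182 CPM. The 4 basal markers summed to 0.154 to 1.07 CPM and 6 sensory neuron markers to 6.65 to 9.94 CPM. The immune marker PTPRC and the fibroblast marker COL1A2 were at 0 in every library, but other markers of their lists had reads. Of 7 mesenchymal markers 5 were tested, with VIM the highest and COL1A1 and COL3A1 among them. Of 5 immune markers 1, CD68, was tested. The remaining marker lists summed to 62.7 to 119 CPM (neuroendocrine), 61 to 88.1 (mesenchymal), 12.1 to 28.7 (immune) and 18.7 to 27.5 (skeletal muscle). The androgen response genes KLK3, KLK2 and TMPRSS2 rose with DHT over both lines by edgeR's quasi-likelihood test, while FKBP5 stood at 2.81 on the log2 scale (edgeR adjusted p = 0.15). In the LNCaP ethanol library the chaperone gene HSPA5 stood at 8595 CPM, against 1245 to 1645 in the other libraries. That library is the reference of every LNCaP comparison against ethanol.

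DHT was accompanied by higher TRPM8 in both lines. TRPM8 had 70, 298 and 43 counts in LNCaP under ethanol, DHT and bicalutamide, or 1.4, 5.49 and 0.824 CPM. In BicR it had 131, 1068 and 96 counts, or 2.51, 25.5 and 1.95 CPM. Both DHT libraries lay above all 4 libraries without androgen. The ratio to ethanol was 3.92 in LNCaP (95% counting interval 3.01 to 5.16) and 10.1 in BicR (8.44 to 12.2), and the additive fit over both lines put the difference at 2.70 on the log2 scale (SE 0.37). Against bicalutamide the ratios were 6.66 (4.83 to 9.4) and 13 (10.6 to 16.2). These intervals describe counting error alone and leave out any difference between cultures; in bulk RNA, more cells with the transcript and more transcript per cell cannot be told apart.

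CHRNA2 was also highest in the DHT libraries, over a wider range. Its counts were 61, 494 and 45 in LNCaP under ethanol, DHT and bicalutamide, or 1.22, 9.1 and 0.862 CPM. In BicR they were 129, 4381 and 127, or 2.48, 104 and 2.58 CPM. The DHT libraries were again the highest pair, and BicR with DHT held 11.5 times the level of LNCaP with DHT (10.5 to 12.6). Against ethanol the ratio was 7.46 (5.71 to 9.9) in LNCaP and 42.2 (35.4 to 50.6) in BicR, and over both lines the log2 difference was 4.31 (SE 0.56). For background, 0.158% of all tested genes passed the additive test as higher with DHT and 0.0072% as lower, and with either bicalutamide library left out 0 genes passed. No test outcome is read for the members here, since that contrast helped to choose them.

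**Figure D1:**
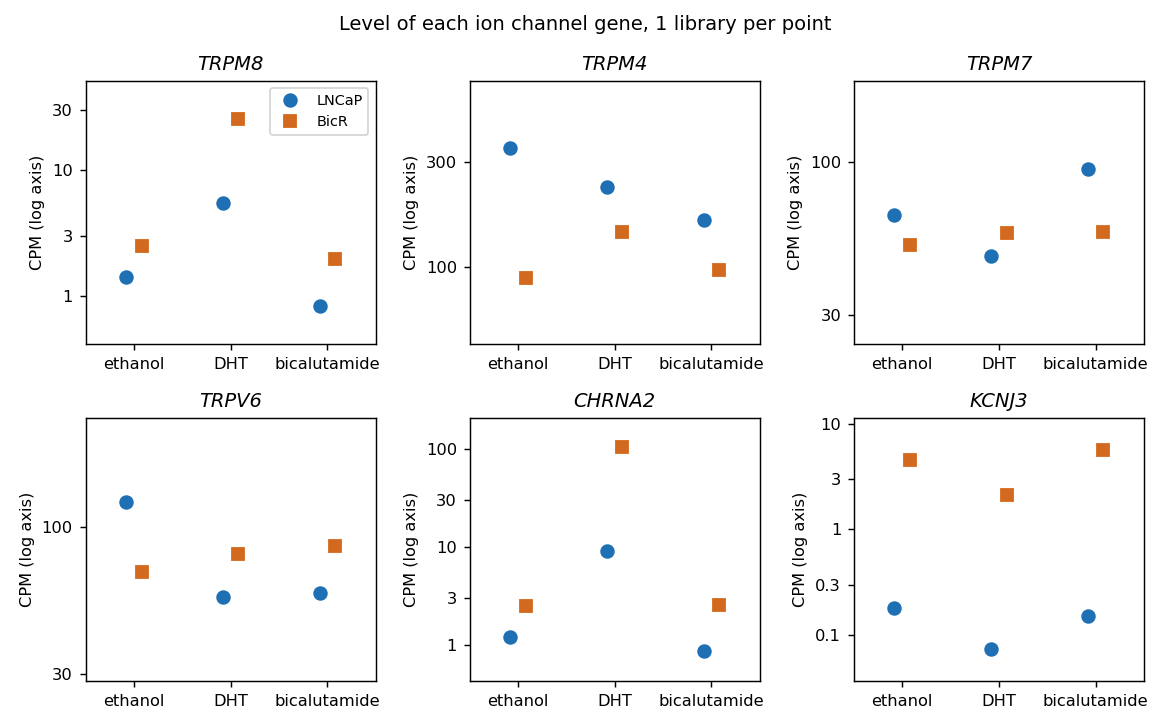
Level of each member in CPM (log axis) by treatment; each point is 1 library, circles are LNCaP and squares BicR. TRPM8 and CHRNA2 peak under DHT in both lines (25.5 and 104 CPM in BicR), KCNJ3 in BicR is above LNCaP in every treatment, and TRPM4, TRPM7 and TRPV6 span less than 4-fold.

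TRPM4 was the most abundant member by read count in every library, and its change with DHT had opposite signs in the lines when ethanol was the reference. With ethanol, DHT and bicalutamide in turn, LNCaP gave 347, 230 and 164 CPM and BicR gave 90.1, 145 and 97.7 CPM. All 3 LNCaP libraries lay above all 3 BicR libraries. Relative to ethanol, DHT stood at 0.665 (0.65 to 0.681) in LNCaP and 1.61 (1.55 to 1.67) in BicR, and the log2 difference over both lines was 0.01 (SE 0.31). Relative to bicalutamide the DHT ratios were 1.41 (1.37 to 1.45) and 1.48 (1.43 to 1.54), above 1 in each line. The additive estimate was 0.67 without LNCaP ethanol, where BicR alone gave the ethanol reference. It was -0.57 without BicR ethanol, where LNCaP alone gave it. The part of the LNCaP ethanol library's HSPA5 level in this was not tested.

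TRPV6 was also highest in LNCaP ethanol. In the same order of treatments its levels were 123, 56.6 and 58.4 CPM for LNCaP, and 69.5, 80.6 and 85.7 CPM for BicR. The remaining 5 libraries spanned 56.6 to 85.7 CPM. With DHT and with bicalutamide TRPV6 stood at nearly the same fraction of ethanol in LNCaP, 0.462 (0.442 to 0.482) and 0.476 (0.456 to 0.498). In BicR the ratios were 1.16 (1.11 to 1.22) and 1.23 (1.18 to 1.29). Between the DHT and bicalutamide libraries TRPV6 differed little: the ratio was 0.969 (0.921 to 1.02) in LNCaP and 0.941 (0.899 to 0.985) in BicR. The log2 difference for DHT against ethanol over both lines was -0.51 (SE 0.32). Without LNCaP ethanol, where BicR alone gave the ethanol reference, it was 0.22. TRPV5, the closest relative of TRPV6 and its neighbour in the genome, had only 8 to 35 counts per library, against 3050 to 6134 for TRPV6. How the counting treated reads that match both genes is not given in these sources and was not tested.

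TRPM7 varied least of the 6. LNCaP held 66.2, 47.7 and 94.8 CPM with ethanol, DHT and bicalutamide, where BicR held 52.3, 57.2 and 57.9 CPM. The LNCaP libraries enclosed the BicR ones on both sides. The highest and lowest values were LNCaP bicalutamide and LNCaP DHT, with a DHT to bicalutamide ratio of 0.504 (0.48 to 0.528), against 0.988 (0.935 to 1.04) in BicR. Over both lines DHT against ethanol was at -0.15 (SE 0.24).

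KCNJ3 separated the lines. LNCaP had 9, 4 and 8 counts under ethanol, DHT and bicalutamide, or 0.18, 0.0737 and 0.153 CPM, not far above the floor of 3 counts. BicR had 234, 89 and 280 counts, or 4.49, 2.12 and 5.7 CPM. Every BicR library was above every LNCaP library. Within BicR the DHT library was the lowest, at 0.472 of ethanol (0.366 to 0.605) and 0.372 of bicalutamide (0.29 to 0.474). In LNCaP the DHT to ethanol ratio was 0.409, but with so few reads its interval ran from 0.0921 to 1.47, so a difference was not detectable at this depth.

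**Figure D2:**
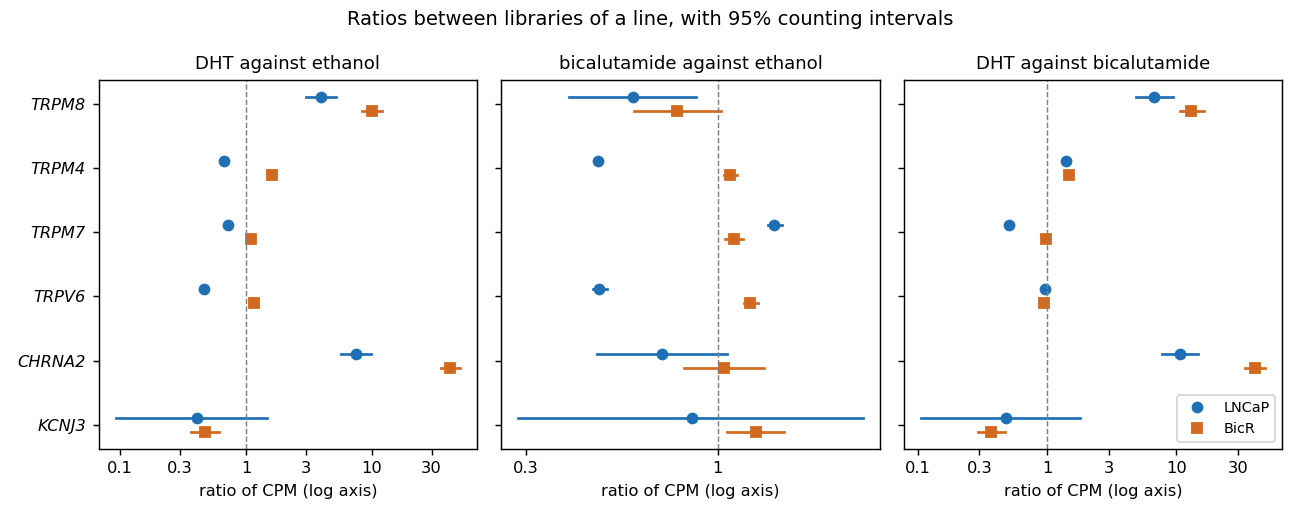
Ratios of CPM between libraries of a line (log axis), with 95% counting intervals as bars, for the 6 members; circles are LNCaP, squares BicR, and the dashed line marks equality. TRPM8 and CHRNA2 lie to the right of 1 with DHT against either reference, while TRPM4 changes side in LNCaP between the ethanol reference (0.665) and the bicalutamide reference (1.41).

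Counted by library pairs, at least 2-fold on the log2(CPM + 1) scale, TRPM8 and CHRNA2 were higher and TRPV6 lower with DHT than with ethanol in LNCaP, where 1.4% of tested genes were higher and 1.19% lower. In BicR the same 2 were higher and 0 members lower (background 1.45% and 0.922%). Against bicalutamide, TRPM8 and CHRNA2 were higher with DHT in LNCaP (1.58% higher and 0.893% lower among all tested genes) and in BicR, where KCNJ3 was lower (1.43% and 1.04%). Bicalutamide against ethanol left TRPM4 and TRPV6 lower and 0 higher in LNCaP (1.08% higher and 1.52% lower), and 0 members or genes either way in BicR. These pairs carry no replicate check, and those with DHT were among the values that chose the members.

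Ordering the 6 libraries of each gene gave these sequences of levels. For TRPM8 the order was BicR DHT, LNCaP DHT, BicR ethanol, BicR bicalutamide, LNCaP ethanol and LNCaP bicalutamide, and BicR ethanol and BicR bicalutamide were neighbours not separated by counting error (ratio 1.29, 0.982 to 1.69). For CHRNA2 the order differed in having BicR bicalutamide before BicR ethanol (1.04, 0.81 to 1.34), and LNCaP ethanol and bicalutamide were also not separated (1.41, 0.947 to 2.13). For KCNJ3 the 3 LNCaP libraries were not separated from each other, while BicR DHT, the lowest of BicR, was above LNCaP ethanol (11.8, 5.94 to 26.6). For TRPM7 this held for BicR bicalutamide and BicR DHT, and for TRPV6 for LNCaP bicalutamide and LNCaP DHT. In TRPM4 each step was larger than counting error, the smallest being BicR bicalutamide over BicR ethanol (1.08, 1.04 to 1.13).

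Bicalutamide against ethanol was not used to choose the members and was tested, although it shares the ethanol libraries with the DHT comparison. By edgeR's quasi-likelihood test 0 of the 6 members passed over both lines, 0 had an unadjusted p under 0.05, and DESeq2 called 0. Among all tested genes 0% passed as higher and 0% as lower. The log2 differences were -0.58 (SE 0.37) for TRPM8, -0.53 (SE 0.31) for TRPM4, -0.44 (SE 0.32) for TRPV6, -0.25 (SE 0.55) for CHRNA2, 0.18 (SE 0.38) for KCNJ3 and 0.35 (SE 0.24) for TRPM7, each with edgeR adjusted p = 0.996. TRPM8 was lower with bicalutamide in 2 of 2 lines, at 0.589 of ethanol in LNCaP (0.393 to 0.873) and 0.777 in BicR (0.591 to 1.02). TRPM4 stood at 0.472 (0.46 to 0.485) in LNCaP and 1.08 (1.04 to 1.13) in BicR. KCNJ3 stood at 1.27 in BicR (1.06 to 1.52) and TRPM7 at 1.43 in LNCaP (1.37 to 1.5) and 1.11 in BicR (1.05 to 1.17).

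Between the lines, TRPM8, CHRNA2 and KCNJ3 were higher in BicR under each treatment and TRPM4 was lower. TRPM8 was 1.8 times as high in BicR under ethanol (1.33 to 2.44), 4.64 times under DHT (4.08 to 5.29) and 2.37 times under bicalutamide (1.64 to 3.48). For CHRNA2 these ratios were 2.03 (1.49 to 2.8), 11.5 (10.5 to 12.6) and 3 (2.12 to 4.31), so for both genes the DHT pair was the most unequal. KCNJ3 was 25 (12.9 to 55.3), 28.8 (10.9 to 108) and 37.2 (18.6 to 86.9) times as high, with overlapping intervals. TRPM4 stood at 0.26 (0.252 to 0.269), 0.629 (0.61 to 0.649) and 0.597 (0.576 to 0.618). TRPV6 was below LNCaP under ethanol (0.567, 0.544 to 0.591) and above it under DHT (1.42, 1.36 to 1.5) and bicalutamide (1.47, 1.4 to 1.54), and TRPM7 was above LNCaP under DHT only (1.2, 1.13 to 1.27).

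At least 2-fold on the log2(CPM + 1) scale, KCNJ3 was higher and TRPM4 lower in BicR under ethanol (background 2.62% higher and 3.88% lower), TRPM8, CHRNA2 and KCNJ3 were higher and 0 lower under DHT (2.81% and 4.7%), and KCNJ3 was higher and 0 lower under bicalutamide (0.684% and 1.27%). Differences between the lines helped to choose the members, and KCNJ3 was among the tested genes only through its BicR counts. The members' counts here are therefore no test against the background.

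In the additive fit the log2 difference of BicR from LNCaP was 4.88 (SE 0.35) for KCNJ3, 2.18 (SE 0.45) for CHRNA2, 1.48 (SE 0.30) for TRPM8, -1.11 (SE 0.26) for TRPM4, -0.26 (SE 0.20) for TRPM7 and 0.09 (SE 0.26) for TRPV6. Of all tested genes 1.58% passed as higher and 2.84% as lower in BicR, and this contrast too helped to choose the members. Without either DHT library the estimate was 1.29 for CHRNA2 and 1.03 for TRPM8, and without LNCaP ethanol or BicR ethanol it was -0.71 for TRPM4. Whether the DHT ratios of a gene differ between the lines could not be tested with 1 library in each group.

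**Figure D3:**
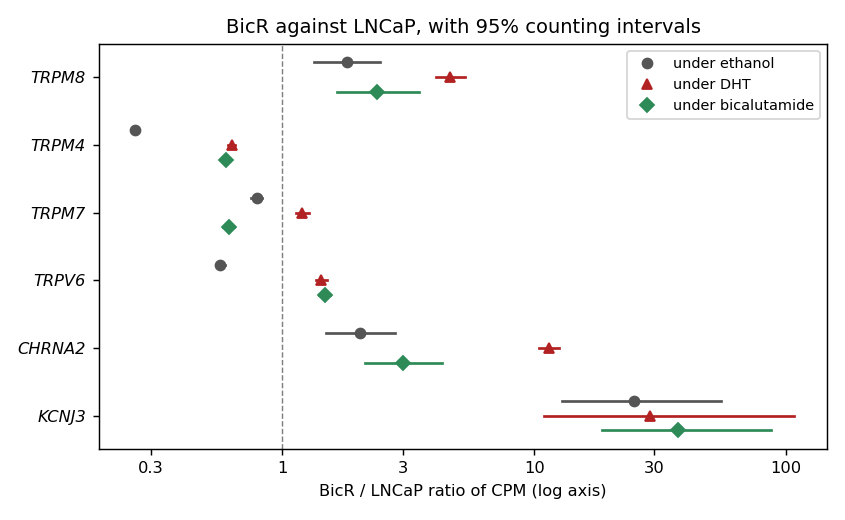
BicR to LNCaP ratio of CPM (log axis) for each member under ethanol (circles), DHT (triangles) and bicalutamide (diamonds), with 95% counting intervals as bars; the dashed line marks equality. KCNJ3 lies at 25 to 37.2, CHRNA2 and TRPM8 are farthest from 1 under DHT, and TRPM4 is below 1 in each treatment.

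Scaled for length, with the authors' RPKM (read counts scaled to gene length and library size), the 4 TRP members took most of the TRP channel transcript. The summed RPKM of 27 TRP genes was 53 to 108 per library. TRPM4 made up 50.8%, 50.7% and 42.7% of it in LNCaP with ethanol, DHT and bicalutamide, against 29.5%, 35.8% and 29% in BicR. TRPV6 took 25.2%, 17.5% and 21.4% in LNCaP and 31.8%, 27.9% and 35.6% in BicR, so that TRPV6 was above TRPM4 in BicR ethanol and bicalutamide and below it in the other 4 libraries. TRPM7 took 5.43% to 13.8%. TRPM8 went from 0.148% to 0.871% in LNCaP and from 0.593% to 4.53% in BicR with DHT, and its level at the peak, 2.95 RPKM, was still below the 23.3 RPKM of TRPM4 in the same library. CHRNA2 reached 16.7 RPKM there, higher than 85.2% of all rows of the table, from 0.428 RPKM under ethanol.

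**Figure D4:**
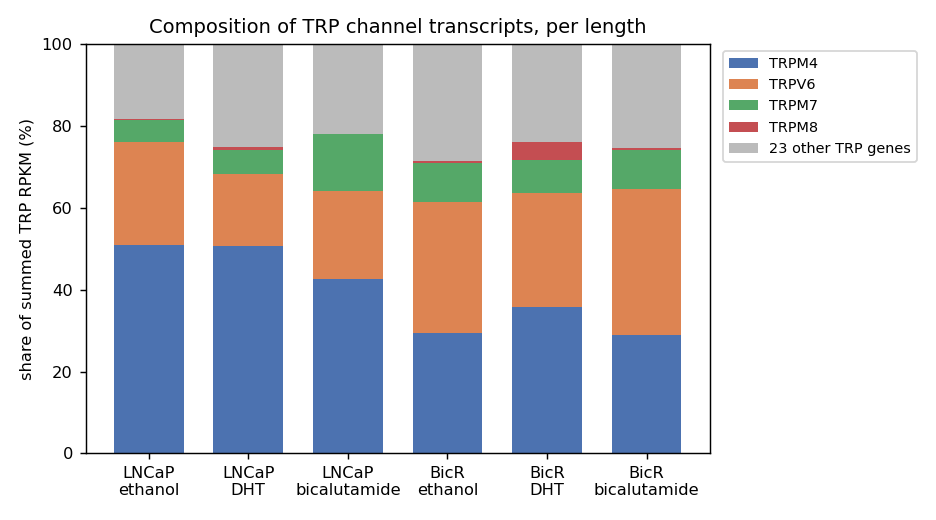
Share of the summed RPKM of 27 TRP genes (percent, stacked bars) taken by TRPM4, TRPV6, TRPM7, TRPM8 and the 23 others in each library. TRPM4 is the largest band in LNCaP (50.8% under ethanol), and TRPM8 is widest in BicR DHT (4.53%).

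Of 157 other channel genes on 6 lists, 74 were tested and 22 were at 0 in every library. The lists leave out the members, some of which were chosen for strong differences with DHT or line. The counts passing on these lists, for DHT or between the lines, are therefore no test against the members. For DHT against ethanol edgeR passed 0. Before adjustment, 3 higher and 4 lower genes had p under 0.05, and DESeq2 called 1 higher (KCNN2). Their median log2 difference was -0.16, against 0.01 over all tested genes. By list, 0 of 9 TRP channels passed (median -0.11), 0 of 6 nicotinic subunits (-0.18), 0 of 7 inward rectifiers and their sulfonylurea receptors (-0.09), 0 of 18 other potassium channels (-0.02), 0 of 17 calcium entry and release channels (-0.19) and 0 of 17 sodium and chloride channels (-0.15). For bicalutamide against ethanol edgeR also passed 0 of 74 (before adjustment, 0 higher and 1 lower with p under 0.05) and DESeq2 called 0.

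KCNN2, which encodes the SK2 calcium-activated potassium channel, came closest to TRPM8 and CHRNA2 in its DHT difference. With ethanol, DHT and bicalutamide in turn it stood at 31.5, 72.5 and 20.9 CPM in LNCaP, beside 21.3, 161 and 21.3 CPM in BicR. Both DHT libraries were above the other 4, and the ratio to ethanol was 2.3 (2.17 to 2.44) for LNCaP and 7.54 (7.07 to 8.04) for BicR. Its log2 difference over both lines was 2.08 (SE 0.36, edgeR adjusted p = 0.112, higher in 2 of 2 lines). KCNMA1, the BK potassium channel gene, was named after its values were seen. Its DHT to ethanol ratios were 1.26 (1.21 to 1.3) for LNCaP and 2.84 (2.76 to 2.92) for BicR, with edgeR adjusted p = 0.635 over both lines. ITPR1, a calcium release channel gene also named after its values were seen, was at -0.91 over both lines (SE 0.27, edgeR adjusted p = 0.593). The genes with the largest DHT estimates in the remaining lists had few reads: TRPV5 was at -0.74 (edgeR adjusted p = 1), CHRNA3 at -0.52 (1), KCNJ10 at -1.03 (1), RYR1 at -1.17 (0.813) and the sodium channel subunit gene SCNN1B had 13 to 127 counts per library.

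**Figure D5:**
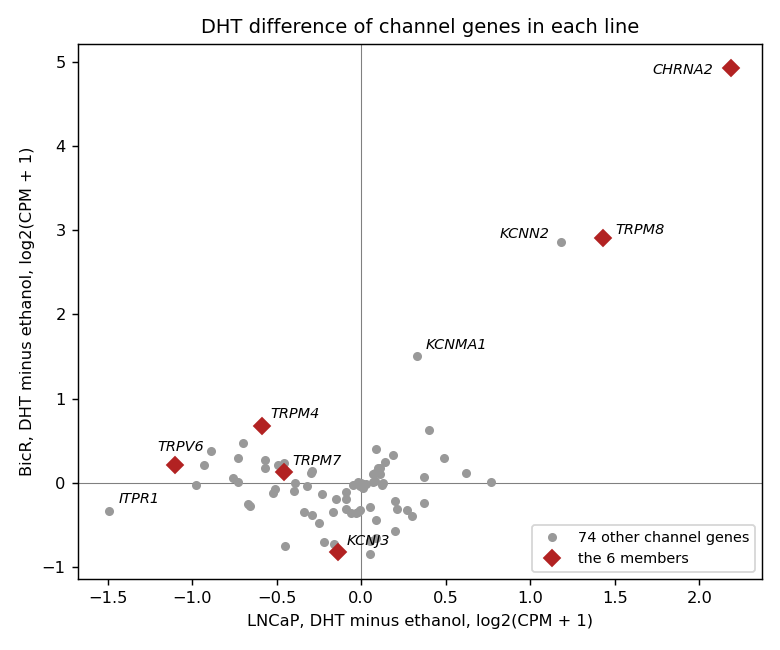
DHT minus ethanol on the log2(CPM + 1) scale in LNCaP (horizontal axis) and BicR (vertical axis) for the 6 members (diamonds) and 74 other tested channel genes (circles), 1 library per line and treatment. CHRNA2, TRPM8 and KCNN2 stand at the upper right, away from the cluster near 0. TRPM4, TRPV6 and TRPM7 are left of 0 in LNCaP (-0.59, -1.10 and -0.46) and above 0 in BicR (0.68, 0.21 and 0.13).

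Between the lines 2 of the 74 other channel genes were higher in BicR and 5 lower by edgeR, where 1.58% of all tested genes were higher and 2.84% lower. Before adjustment 9 higher and 21 lower had p under 0.05, and DESeq2 called 2 higher and 10 lower. RYR2, a calcium release channel gene, was higher by 1.03 on the log2 scale (edgeR adjusted p = 0.0477), with 23.2, 13.6 and 28.6 CPM in LNCaP and 38.1, 47.2 and 43.5 CPM in BicR under ethanol, DHT and bicalutamide. SCN2A, a sodium channel gene named after its values were seen, was the other at 1.63 (adjusted p = 0.0367). The lower genes were CHRNA3 at -1.56 (adjusted p = 0.0359), the T-type calcium channel gene CACNA1G at -1.65 (0.0449), SCNN1B at -1.78 (0.0298), the lysosomal chloride transporter gene CLCN7 at -0.76 (0.0345) and BEST1 at -0.74 (0.0335). None of the 9 TRP channels (before adjustment, 1 higher and 2 lower with p under 0.05; DESeq2 called TRPC1 lower) and none of the 7 inward rectifiers (0 higher and 3 lower; DESeq2 called KCNJ2 lower) passed by edgeR. Leaving out the LNCaP bicalutamide or the BicR bicalutamide library left 0 higher and 0 lower of the 74. CLCN7 and BEST1 passed in 0 of the 6 fits that left out 1 library, and CHRNA3, CACNA1G and RYR2 also did not pass without LNCaP DHT or without BicR DHT. SCNN1B did not pass without LNCaP ethanol.

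Partners of the members were measured too. GIRK1 needs another subunit to form a channel at the surface in most cells; its partner genes KCNJ5 and KCNJ6 had 0 counts and 0 to 2 counts per library, and KCNJ9 had 1 to 17. FAM115A, now called TCAF1, which encodes a protein that binds TRPM8, stood at 59.9 to 81 CPM, and its relative FAM115C had 6 to 17 counts per library. PIRT, a membrane regulator of TRPM8 in sensory neurons, had 9.04 CPM in LNCaP ethanol and 0.477 to 1.53 CPM in the other 5 libraries, and its DHT difference was -2.32 (edgeR adjusted p = 0.621). ATP2B1, a plasma membrane calcium pump gene, had 649, 349 and 745 CPM in LNCaP with ethanol, DHT and bicalutamide, where BicR had 174, 74.2 and 172 CPM. It was lower in BicR by 2.08 on the log2 scale (edgeR adjusted p = 0.000986), and its DHT difference was -1.07 (adjusted p = 0.19, lower in 2 of 2 lines). In all, 0 of 15 tested partner and calcium handling genes passed with DHT by edgeR. Before adjustment, 0 higher and 3 lower had p under 0.05, and DESeq2 called ATP2B1 and PIRT lower. Between the lines 1, ATP2B1, passed by edgeR. There 0 higher and 4 lower had p under 0.05 before adjustment, and DESeq2 called ATP2A3, ATP2B1 and PIRT lower. Without the LNCaP bicalutamide or the BicR bicalutamide library 0 passed between the lines.

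For TRPM8 and CHRNA2, the members with the largest DHT estimates, the nearest genes of the count table in RefSeq (GRCh38.p14) were taken by place. Apart from TRPV5, the neighbours of the other members are not reported here. HJURP, beside TRPM8, stood at 2.76, 14 and 15.9 CPM in LNCaP and 26.8, 24.1 and 24.4 CPM in BicR under ethanol, DHT and bicalutamide. Its log2 difference for DHT against ethanol over both lines was 0.84 (SE 0.55). For BicR against LNCaP it was 1.48 (SE 0.46, edgeR adjusted p = 0.099). TRPM8 had the same estimate with a different pattern. The lines lay furthest apart under DHT for TRPM8 (ratio 4.64) and under ethanol for HJURP, where LNCaP was at 2.76 CPM. SPP2, on the other side, had 0 counts in every library. PTK2B, beside CHRNA2, ran from 119 to 168 CPM and EPHX2 from 30.4 to 46.1 CPM; their DHT differences were -0.31 (edgeR adjusted p = 1) and 0.16 (1). In that annotation 0 of the 6 members overlapped another gene of the count table, and TRPM7 overlapped 1 RefSeq locus that the table does not list. The counts rest on an earlier build, and the effect of overlap on them was not tested.

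Likeness of pattern was measured as the root-mean-square distance of log2(CPM + 1) over the 6 libraries after centring each gene on its mean. It describes these libraries, which share lines and treatments. TRPM8 was nearest to SNAI2 (distance 0.23, r = 0.986), ZBTB16 (0.29, r = 0.978), SLC45A3 (0.33, r = 0.976) and FKBP5 (0.33, r = 0.972). CHRNA2 was nearest to CENPN (0.49, r = 0.985), KLK2 (0.54, r = 0.972), TRIM49L (0.54, r = 0.977) and FKBP5 (0.66, r = 0.986). KCNJ3 was nearest to KIAA1324 (0.16, r = 0.998), IFI44L (0.18, r = 0.991), IFIT3 (0.19, r = 0.985) and ODZ2 (0.20, r = 0.984). With 4 to 9 counts of KCNJ3 in LNCaP, adding 1 shrank its line difference on this scale. In the additive fit that difference was 4.88 for KCNJ3, against 2.79 for KIAA1324, 3.55 for IFI44L, 2.61 for IFIT3 and 2.12 for ODZ2. TRPV6 was nearest to BTN3A3 (0.11, r = 0.985), PRDM16 (0.11, r = 0.955), MAP1LC3B2 (0.13, r = 0.947) and RGS3 (0.13, r = 0.944).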

How the data were processed

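Total RNA of the 6 libraries was sequenced on the SOLiD 3 Plus system, as the labels' protocols state. For each gene the authors deposited read counts, not normalized, and RPKM, as named in the file headers. The submitters' processing notes name hg19. Aligner, counter, annotation and strand setting: not given in the sources used here. Samples were mapped to groups by their titles. Counts of genes with a mean of at least 20 were scaled by TMM and tested in edgeR 4.0.16 (R 4.3.3; quasi-likelihood, 2-sided, Benjamini-Hochberg adjustment over 13885 genes at 0.05) with cell line and treatment as additive terms, which left 2 residual degrees of freedom. The disagreement of the lines is the error of this model, and its p-values rest on the spread of libraries that the labels do not call separate cultures. The script was tested on simulated data. DESeq2 1.42.0 gave an alternative. Between 2 libraries, ratios of CPM carry exact 95% intervals conditional on the summed count; 2-fold counts use log2(CPM + 1). RPKM served to compare genes per length. Members, gene lists and markers were chosen with earlier results of these data known. The rule for other named genes took, from each list, up to 3 genes of highest mean CPM among those past the additive test and the 1 with the largest DHT estimate, the androgen response genes (some are not reported here), and the 4 genes nearest in profile to TRPM8, CHRNA2, KCNJ3 and TRPV6. Alternatives were DESeq2 size factors, no count filter, other pseudocounts, RPKM, bicalutamide as reference, and leaving out each library.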

Additional observations from a re-analysis of the deposited data

Results flagged for a closer look

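TRPM4, TRPV6 and TRPM7 lay on opposite sides of their ethanol libraries in the lines, each ratio with a counting interval that excluded 1; the difference between the lines was not tested. With DHT, TRPM4 stood at 0.665 in LNCaP and 1.61 in BicR, TRPV6 at 0.462 and 1.16, and TRPM7 at 0.721 and 1.09. With bicalutamide, TRPM4 stood at 0.472 and 1.08, and TRPV6 at 0.476 and 1.23. All LNCaP ratios here share the LNCaP ethanol library, in which HSPA5 stood at 8595 CPM.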

How the results depend on the processing

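The labels carry no replicate numbers, and with 1 library per line and treatment there were no replicates to pair. The line term of the additive model compares treatments within each line. Over all genes, 22 rose and 1 fell with DHT against ethanol, 0 and 0 with bicalutamide, and 219 were higher and 395 lower in BicR. Without the count filter these were 66 and 11 for DHT and 503 and 857 between the lines, and with DESeq2 75 and 24, and 557 and 933. Leaving out 1 library gave 0 to 167 higher and 0 to 106 lower for DHT, 0 to 102 and 0 to 95 for bicalutamide, and 0 to 225 and 0 to 470 between the lines. The DHT counts were 0 without LNCaP bicalutamide or BicR bicalutamide, as were those between the lines, while the bicalutamide counts rose above 0 only without BicR ethanol. The cause was not tested.

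Among the members, the DHT estimate ran from 2.06 (without BicR DHT) to 3.25 (without LNCaP DHT) for TRPM8, from 3.03 to 5.27 for CHRNA2 and from -1.45 to -1.04 for KCNJ3. It changed sign for TRPM4 (-0.57 to 0.67), TRPM7 (-0.57 to 0.22) and TRPV6 (-1.13 to 0.22). A fit without a DHT or ethanol library takes that treatment from BicR or LNCaP alone. The line estimate ran from 1.03 to 1.80 for TRPM8, 1.29 to 2.71 for CHRNA2, 4.69 to 5.04 for KCNJ3, -1.35 to -0.71 for TRPM4 and -0.53 to -0.04 for TRPM7, and changed sign for TRPV6 (-0.16 to 0.53). For bicalutamide against ethanol 0 of 6 members passed with any library left out, and the lowest edgeR adjusted p was 0.0864, for TRPM4 without BicR ethanol. With bicalutamide as reference the DHT estimate was 3.28 for TRPM8, 4.56 for CHRNA2 and -1.32 for KCNJ3. With DESeq2 size factors all 72 member values stayed within their error. On the log2(RPKM + 1) scale 34 of 54 member differences moved by more than counting error and 0 reversed; TRPM8 with DHT in LNCaP stood at 0.50, since adding 1 shrinks low values. For KCNJ3 in LNCaP, 4 to 9 counts limit any comparison.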
